A study of Mus musculus with 12 samples.

Results

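Transcripts of 10 genes that characterize the endothelium of the blood-brain barrier (Cldn5, Ocln, Tjp1, Esam, Pecam1, Cdh5, Tie1, Mfsd2a, Abcb1a and Lef1) were measured in whole brains of newborn mice with and without the protein kinase KIS. The members were taken as every main probeset, a set of oligonucleotides for 1 exonic region, whose gene symbol in the deposited table is in this list. They were 10 of 17279 genes tested, and 199 of 221417 main probesets with a symbol belonged to them. All 10 symbols were found in RefSeq. Total RNA came from 12 brains of newborn females, 6 wildtype (KIS +/+) and 6 KIS-ko (KIS -/-), genotyped from a piece of tail. The knockout had been backcrossed to C57BL6/N for 10 generations, and each of 6 litters gave 1 wildtype and 1 KIS-ko brain. Each brain was hybridized to 1 Affymetrix Mouse Exon 1.0 ST array. The study asked with these arrays how the loss of KIS affects gene expression in the neonate brain.

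The blood-brain barrier is formed by the endothelial cells of brain capillaries, which are sealed by tight junctions, carry few vesicles and move nutrients and drugs through dedicated transporters. Wnt ligands of the neural tissue act through beta-catenin and Tcf/Lef factors in these cells and are known to induce barrier genes during embryonic life, and pericytes on the vessel wall help to maintain the barrier. Endothelial cells are a small part of the brain, and in a whole-brain extract fewer endothelial cells and less RNA per endothelial cell cannot be told apart.

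The gene value used here is the mean over the probesets of a gene of log2(signal + 16), and every difference is KIS-ko minus wildtype on this log2 scale, which understates the change of dim probesets. Uhmk1, the gene that encodes KIS, lay between 10.89 and 11.07 in wildtype and between 8.62 and 8.98 in KIS-ko brains, a difference of -2.11 (limma adjusted p = 2.9e-07), so every array matched its genotype label. It was the only gene of 17279 with an adjusted p under 0.05 (0.00579% of genes). The median signal of an array over all main probesets with a symbol lay between 478 and 546, and the arrays were correlated with each other at r between 0.977 and 0.990. In the KIS-ko brains 69.8% of all genes had a negative difference, and their median was -0.036, which became 0.020 when arrays were centred on their medians and 0.0021 when they were quantile-normalized again. Centring raised the difference of every gene by the same amount. In whole brains, the markers fixed for neurons (9 of 11 listed) and for astrocytes and radial glia (9 of 9) were all above the median of the intron controls, and so were the 28 endothelial identity genes tested of 29 listed.

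All 10 barrier genes gave signals above the median of the intron controls (114) at birth, with a median over kept probesets in wildtype brains from 345 (Ocln) to 1831 (Mfsd2a). Of their 199 probesets, 193 were kept and 6 were rejected because their SD exceeded 0.4 of their mean among wildtype or among KIS-ko arrays, and every gene kept at least 2. In wildtype brains 189 of the 193 kept probesets had a mean signal above that median, which is over 5222 probesets placed in introns as controls, and 86 were above 713, their 95th percentile. The medians of Ocln, Abcb1a, Lef1, Tie1, Esam and Pecam1 lay below 713. The spread of a gene over the 6 wildtype brains was small, from an SD of 0.046 for Tie1 to 0.15 for Esam. Levels of different genes rest on different oligonucleotides and were therefore not ranked against each other.

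None of the 10 genes passed the test between genotypes. Without adjustment, 0 of the 10 had a limma p under 0.05 (6.16% of all genes did, 4.34% lower and 1.82% higher in KIS-ko brains), and the adjusted p lay between 0.685 and 0.950. The difference was negative for 10 of 10 genes on the arrays as deposited, beside 69.8% of all genes, but for 6 of 10 when arrays were centred on their medians (37.7% of all genes) and for 7 of 10 when they were quantile-normalized again (48.6% of all genes). Its median over the 10 genes was -0.064, beside -0.036 over all genes. On centred arrays the medians were -0.0081 and 0.020, on quantile-normalized arrays -0.023 and 0.0021, and without litter 6 -0.031 and -0.022. Without litter 4, Ocln and Tjp1 had an unadjusted p under 0.05, as did 22.6% of all genes, and without litter 3 Ocln did, as did 4.68% of all genes, but the lowest adjusted p of the 10 was 0.157 without litter 4. None of the 10 was lower in the KIS-ko brain of all 6 litters (1.6% of all genes were). Values of wildtype and KIS-ko brains overlapped for every gene.

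**Figure D1:**
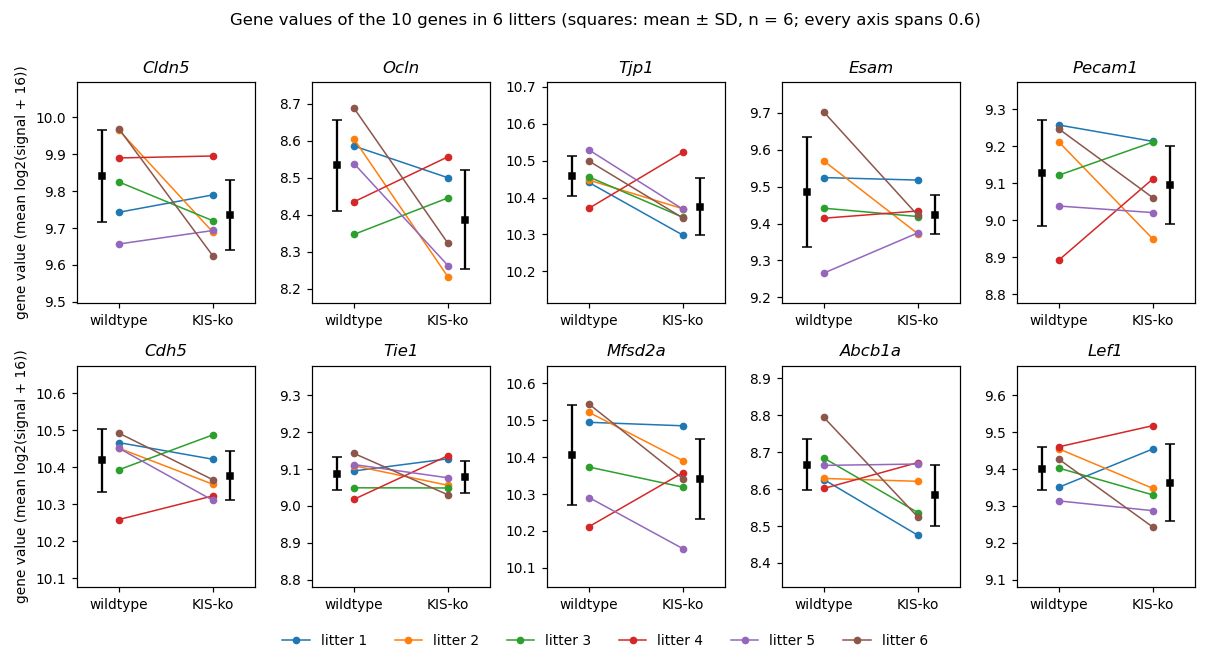
Gene value, the mean of log2(signal + 16) over probesets, of each of the 10 genes in wildtype and KIS-ko brains, with 1 line for each of 6 litters and squares with bars for the mean ± SD (n = 6). Every panel spans the same range of 0.6 on the log2 axis, and the values of the genotypes overlap in all 10 panels.

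Among the tight junction genes, Cldn5 encodes claudin-5, the main claudin of brain endothelium. Cldn5 lay at 9.66, 9.86 and 9.97 (lowest, median and highest) in wildtype brains and at 9.62, 9.71 and 9.89 in KIS-ko brains. The ranges nearly coincided, and the KIS-ko brain was the lower of the littermates in 3 of 6 litters. The difference was -0.11 ± 0.064 (SE, n = 6 litters, limma adjusted p = 0.685), a fold change of 0.929 with a 95% interval from 0.842 to 1.03. This gene is covered by only 2 probesets, chr16:18777360-18778271 on the plus strand in the deposited table, whose genome build is not named. Their mean signals in wildtype were 2696 and 297, and their differences were -0.079 and -0.13.

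Ocln encodes occludin, a membrane protein of tight junctions in endothelia and epithelia. Its 12 probesets (10 kept, none above the 95th percentile of the intron controls) lie in chr13:101268773-101322419 on the minus strand. Ocln lay at 8.35, 8.56 and 8.69 in wildtype and at 8.23, 8.38 and 8.56 in KIS-ko brains. Its difference was -0.15 ± 0.077 (SE, limma adjusted p = 0.685), with the widest spread of the 10 genes between litters, from -0.37 in litter 2 to 0.12 in litter 4 (SD 0.22, n = 6). The KIS-ko littermate was lower in 4 of 6 litters. The fold change of 0.903 had a 95% interval from 0.803 to 1.02. Weighted over probesets by the inverse of their relative SD, the measure of the study, it was 0.980, and that of Cldn5 0.938. With the median over probesets in place of the mean the difference of Ocln was -0.24, with an unadjusted limma p of 0.032 (adjusted 0.782). Of the 10 kept probesets of Ocln, 9 had a negative difference. The exception, at chr13:101281393-101281562, had a difference of 0.18, while those at chr13:101309247-101309414 and chr13:101309498-101309652 had differences of -0.30 and -0.27, each of the 3 with an unadjusted p under 0.05 and a limma adjusted p of 0.751.

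Tjp1 encodes ZO-1, a scaffold that ties claudins and occludin to actin and is also present in other junction-forming cells of the brain. Tjp1 lay at 10.37, 10.45 and 10.53 in wildtype and at 10.30, 10.36 and 10.52 in KIS-ko brains. The KIS-ko brain of litter 4 stood apart at 10.52, above the 10.37 of the next KIS-ko brain. In the other 5 litters the KIS-ko littermate was lower, by -0.078 to -0.16, and in litter 4 it was higher by 0.15. The difference over all litters was -0.082 ± 0.054 (SE, n = 6 litters, limma adjusted p = 0.685). Among the 35 probesets of Tjp1 (chr7:72441777-72515991, minus strand), 27 of them above the 95th percentile of the intron controls, 32 had a negative difference. The most positive, 0.32, belonged to a probeset at chr7:72515696-72515722 that the table marks as able to hybridize to other transcripts.

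Esam, which encodes an adhesion molecule of endothelial tight junctions, lay at 9.27, 9.48 and 9.70 in wildtype and at 9.37, 9.42 and 9.52 in KIS-ko brains. Here the KIS-ko values fell inside the wildtype range, with an SD of 0.053 against 0.15 in wildtype. The difference was -0.063 ± 0.059 (SE, limma adjusted p = 0.722), and the KIS-ko littermate was lower in 4 of 6 litters. Its 11 probesets (chr9:37335712-37345747, plus strand) were all kept.

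The endothelial adhesion and receptor genes had differences of -0.042 to -0.0084 as deposited. Pecam1 (CD31, a homophilic adhesion molecule of endothelium that is also found on platelets and leukocytes) lay at 8.89, 9.17 and 9.26 in wildtype and at 8.95, 9.09 and 9.21 in KIS-ko brains. Its difference was -0.034 ± 0.066 (SE, limma adjusted p = 0.850) as deposited and 0.022 when arrays were centred on their medians, and the differences within litters spread from -0.26 in litter 2 to 0.22 in litter 4. Cdh5 (VE-cadherin, the cadherin of endothelial adherens junctions) lay at 10.26, 10.45 and 10.49 in wildtype and at 10.31, 10.36 and 10.49 in KIS-ko brains. Its difference was -0.042 ± 0.051 (SE, limma adjusted p = 0.765) as deposited and 0.014 on centred arrays. Tie1, an endothelial receptor tyrosine kinase that acts with the angiopoietin receptor Tek, had the smallest SD of the 10 in both genotypes (0.046 in wildtype and 0.044 in KIS-ko brains, n = 6). It lay at 9.02, 9.10 and 9.14 in wildtype and at 9.03, 9.07 and 9.14 in KIS-ko brains, a difference of -0.0084 ± 0.048 (SE, limma adjusted p = 0.950) as deposited and 0.047 on centred arrays. The 95% interval of Tie1 ran from -0.11 to 0.098. With the median over probesets in place of the mean the differences of Pecam1 and Tie1 were -0.076 and -0.072. For each of these 3 genes the KIS-ko littermate was lower in 4 of 6 litters. They are covered by 18, 12 and 33 probesets at chr11:106515630-106576478 (minus strand), chr8:106636822-106668102 (plus strand) and chr4:118143933-118162658 (minus strand).

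Both transporters had a negative difference that did not pass the test. Mfsd2a encodes the carrier that takes lysophospholipids with docosahexaenoic acid into the brain and keeps vesicle transport low in barrier endothelium. Mfsd2a lay at 10.21, 10.43 and 10.54 in wildtype and at 10.15, 10.35 and 10.48 in KIS-ko brains. The KIS-ko littermate was lower in 5 of 6 litters, and litter 4 was the exception with a difference of 0.15. The difference was -0.065 ± 0.055 (SE, n = 6 litters, limma adjusted p = 0.707), from 15 probesets at chr4:122624211-122638263 on the minus strand.

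Abcb1a encodes a P-glycoprotein, the efflux pump that keeps many drugs out of the brain. Abcb1a lay at 8.60, 8.65 and 8.79 in wildtype and at 8.47, 8.58 and 8.67 in KIS-ko brains. The difference was -0.084 ± 0.056 (SE, limma adjusted p = 0.685), and the KIS-ko littermate was lower in 4 of 6 litters. The probesets with this symbol fall into 2 stretches of chromosome 5. The first (chr5:8660086-8748294, plus strand) held 29 kept probesets, of which 20 match 1 place, with a median difference of -0.078. The second (chr5:8824496-8864241) held 6 kept probesets, of which 0 match 1 place, with a median difference of -0.053. The second stretch lies within that of Abcb1b (chr5:8798752-8866081), the gene for a closely related pump, and the table puts these 6 probesets in the same transcript cluster as the 23 probesets of Abcb1b, so they may measure Abcb1b. Without them, an alternative added after the data were seen, the difference of Abcb1a was -0.077 ± 0.057 (SE, limma adjusted p = 0.690). The gene value of Abcb1b had a difference of -0.082 ± 0.050 (SE, limma adjusted p = 0.685), and the mean signal of Abcb1b, 92.6, was below the median of the intron controls.

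Lef1, the Tcf/Lef transcription factor that marks Wnt signalling in brain endothelium at birth and is also expressed in parts of the neonate forebrain and midbrain, lay at 9.31, 9.41 and 9.46 in wildtype and at 9.24, 9.34 and 9.52 in KIS-ko brains. The KIS-ko values extended past the wildtype range at both ends. The difference was -0.038 ± 0.052 (SE, n = 6 litters, limma adjusted p = 0.787) as deposited, 0.018 on centred arrays and 0.027 when the median over probesets was used in place of the mean. Its 24 probesets (23 kept) lie at chr3:130813253-130926661 on the plus strand. With the rejected probeset included, the difference was -0.068.

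On arrays centred on their medians the differences of Cldn5, Ocln, Tjp1, Esam, Mfsd2a and Abcb1a came closer to 0, at -0.050, -0.091, -0.026, -0.0072, -0.0091 and -0.028. With the median over probesets those of Tjp1 and Mfsd2a were -0.030 and -0.025. With each litter left out in turn, the difference of Cldn5 ranged from -0.14 to -0.058 (without litter 6), that of Ocln from -0.20 to -0.10, that of Tjp1 from -0.13 to -0.066 and that of Esam from -0.097 to -0.020. The ranges were -0.11 to -0.037 for Mfsd2a, -0.11 to -0.046 for Abcb1a, -0.069 to -0.022 for Cdh5 and -0.067 to -0.0090 for Lef1. Over the 10 genes, the standard errors lay between 0.048 and 0.077, and the 95% intervals together reached from -0.32 (the lower end for Ocln) to 0.11 (the upper end for Pecam1). A p that misses the threshold does not show that the genotypes are alike, and these intervals give the differences compatible with the 6 litters for each gene.

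**Figure D2:**
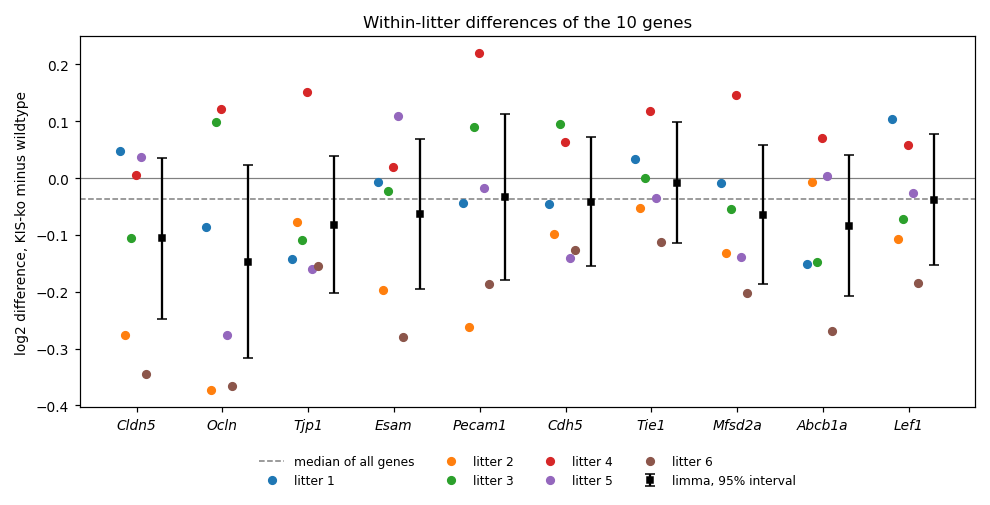
Within-litter log2 difference, KIS-ko minus wildtype, of each of the 10 genes, with 1 point per litter, squares for the limma estimate with bars for its 95% interval (n = 6 litters), and a dashed line at the median of all genes (-0.036). All 10 intervals include 0, the estimates are negative as deposited (6 of 10 on arrays centred on their medians), and litter 4 lies above 0 for every gene.

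The litters differed from each other in direction. In litters 2 and 6 the KIS-ko brain was lower for 10 of 10 genes, with medians of -0.12 and -0.19. In litter 4 it was higher for 10 of 10 genes, with a median of 0.094. In each of litters 1, 3 and 5 it was lower for 7 of 10, with medians of -0.027, -0.039 and -0.031. The medians of all 17279 genes in litters 1 to 6 were -0.046, -0.086, 0.0023, 0.071, -0.052 and -0.11, and so had the same extremes. The median log2 signal of the arrays moved alike, with differences between littermates of -0.072, -0.13, -0.025, 0.098, -0.038 and -0.17. The part of these array medians in the litter values of the 10 genes was not tested.

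**Figure D3:**
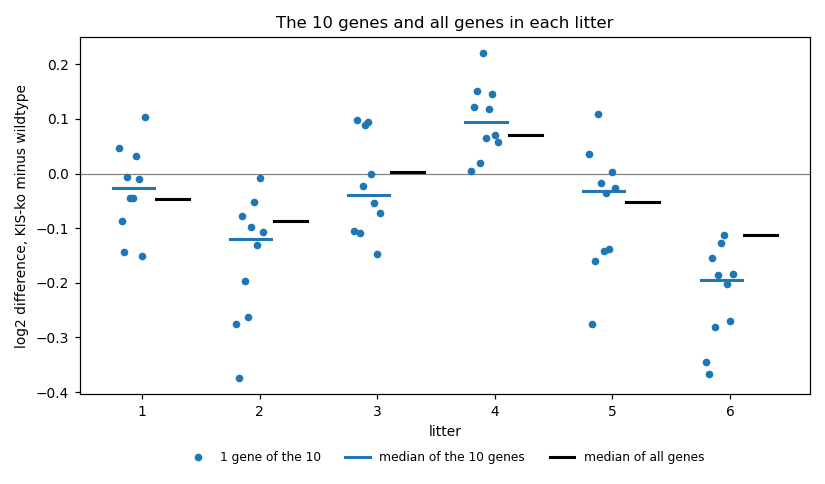
Log2 difference, KIS-ko minus wildtype, in each of 6 litters, with 1 point per barrier gene, a blue line at the median of the 10 genes and a black line at the median of all 17279 genes. All 10 genes are below 0 in litters 2 and 6 and above 0 in litter 4, where the median of all genes lies on the same side.

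Single probesets were then examined. Of the 193 kept, 144 (74.6%) had a negative difference, beside 66.2% of all kept probesets. None passed the adjusted threshold (0.00487% of all probesets did), and 11 had an unadjusted p under 0.05, beside 6.63% of all probesets. Of these 11, 3 each belonged to Ocln, Tjp1 and Abcb1a and 1 each to Mfsd2a and Pecam1, and 1 of the 3 of Abcb1a lies in the cluster of Abcb1b. Those of Ocln and of Tjp1 included 1 probeset each with a positive difference, and the other 9 were negative. Only 1 of the 11, in Tjp1 at chr7:72471185-72471297, was above the 95th percentile of the intron controls. Its mean signal was 2140 ± 120 in wildtype and 1880 ± 101 in KIS-ko brains (SD, n = 6), a difference of -0.19 (limma adjusted p = 0.751).

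**Figure D4:**
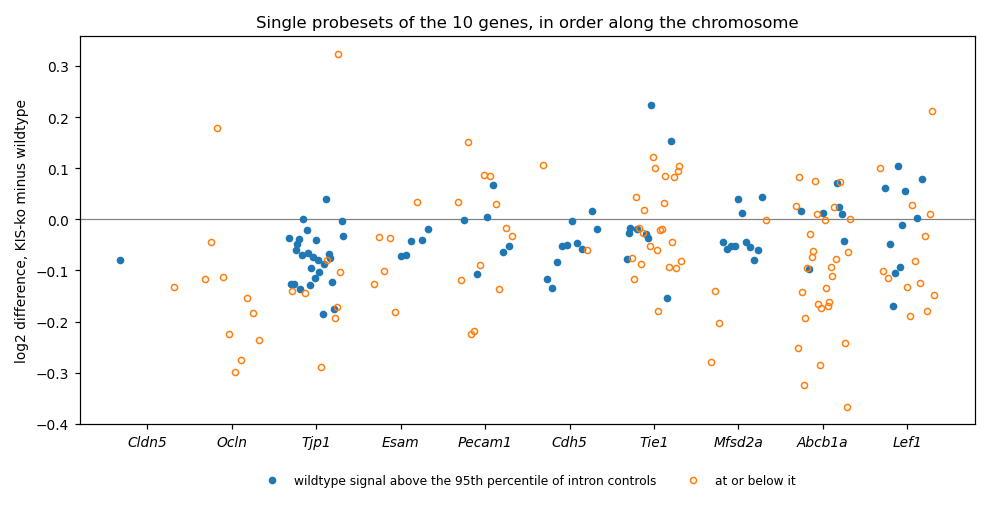
Log2 difference, KIS-ko minus wildtype, of each of the 193 kept probesets, grouped by gene and ordered along the chromosome within a gene, with filled points for probesets above the 95th percentile of the intron controls in wildtype (signal 713) and open points for the others. Points below 0 are 144 of 193, and the open points spread more widely than the filled points.

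Whether the 10 genes varied together from brain to brain was examined after removing the genotype mean of each gene and the median of each array. The median Pearson r of the 45 pairs of genes over the 12 brains was then -0.010, with 22 pairs above 0 and a range from -0.68 to 0.82. Pairs of all genes had a median r of 0.066. An r above 0.5 was seen in 5 of 45 pairs of barrier genes (11.1%) and in 15.3% of all pairs. With the array medians kept, the median r was 0.40 with 39 of 45 pairs above 0, and 37.8% of pairs exceeded 0.5 beside 18.3% of all pairs. Over the 6 within-litter differences, with the median of each litter removed, the median r was 0.19, with 34 of 45 pairs above 0. An r above 0.5 was then seen in 22.2% of pairs of barrier genes and in 19.0% of all pairs, whose median r was -0.004. The part of the array median in these correlations was not tested further. Brains of a litter are not independent of each other, a limit of the permutation p over the 12 brains that follow.

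**Figure D5:**
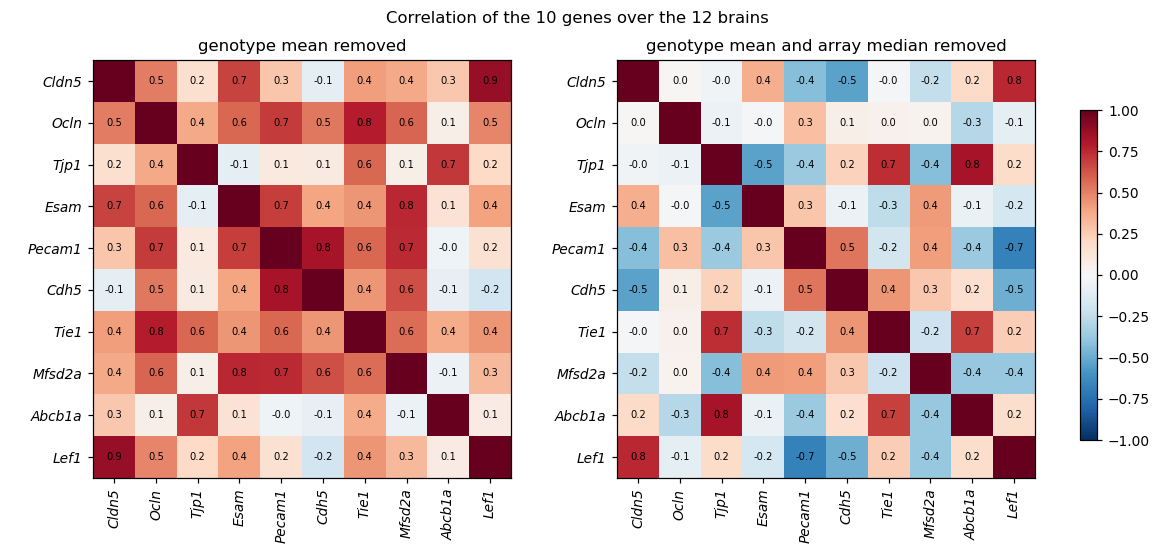
Pearson r over the 12 brains for each of the 45 pairs of the 10 genes, after removing the genotype mean (left) and after removing the genotype mean and the array median (right), on a colour scale from -1 to 1. The median r is 0.40 on the left and -0.010 on the right.

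The pair with the highest r was Tjp1 and Abcb1a, the scaffold and the efflux pump, at r = 0.82 (permutation test with 100000 resamples, two-sided, p = 0.0011, adjusted over 45 pairs 0.0495) and Spearman's rho = 0.86 (permutation p = 0.00083, adjusted 0.037). The adjusted p of r rests on random resamples and lies so near 0.05 that other resamples could put it above. Both genes were low in the 2 brains of litter 1 and high in the 2 brains of litter 5. The r was 0.81 without the 2 brains farthest from the median of Tjp1, between 0.68 and 0.88 when a litter was left out, 0.78 within wildtype and 0.90 within KIS-ko brains. Over the 6 within-litter differences, however, r was 0.38 (exact permutation p = 0.45, adjusted 0.964), and over the 6 litter means it was 0.98 (exact permutation p = 0.047). Without the 6 probesets in the cluster of Abcb1b, the pair no longer passed, with r = 0.78 over the 12 brains (permutation p = 0.0027, adjusted over 45 pairs 0.089) and r = 0.26 over within-litter differences (exact permutation p = 0.642).

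Cldn5 and Lef1 followed at r = 0.76 (permutation p = 0.0041, adjusted 0.089) and rho = 0.70 (permutation p = 0.014, adjusted 0.212), which did not pass the threshold after adjustment. For this pair the relation was of like size over within-litter differences, with r = 0.80 (exact permutation p = 0.025, adjusted 0.375) and rho = 0.83 (exact permutation p = 0.058), and r was 0.71 without the 2 brains farthest from the median of Cldn5. Within wildtype brains r was 0.74 and within KIS-ko brains 0.87. Next came Tjp1 and Tie1 at r = 0.74 (permutation p = 0.0059, adjusted 0.089) and rho = 0.56 (permutation p = 0.062, adjusted 0.40). It rested on litter 5, without which r was 0.23, and over within-litter differences r was 0.23 (exact permutation p = 0.654).

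At the other end, Pecam1 and Lef1 had r = -0.68 (permutation p = 0.015, adjusted 0.134) and rho = -0.48 (permutation p = 0.113, adjusted 0.472), and Tjp1 and Esam had r = -0.53 (permutation p = 0.074, adjusted 0.424) and rho = -0.45 (permutation p = 0.141, adjusted 0.490). Without the 2 farthest brains these were -0.45 and -0.16. With each litter left out in turn, r of Pecam1 and Lef1 lay between -0.82 and -0.31, and that of Tjp1 and Esam between -0.66 and -0.31. Over within-litter differences r was 0.031 for Pecam1 and Lef1 (exact permutation p = 0.95) and -0.53 for Tjp1 and Esam (exact permutation p = 0.289). The smallest p that the exact test over 6 litters can give is 0.0014. After adjustment over 45 pairs a pair could therefore not pass on its own, however strong its correlation. None of the 45 pairs passed the adjusted threshold over within-litter differences, and 4 had an unadjusted p under 0.05. These were Cldn5 and Esam (r = 0.92), Tie1 and Lef1 (0.87), Ocln and Pecam1 (0.83) and Cldn5 and Lef1 (0.80), with adjusted p between 0.375 and 0.484, and over the 12 brains the r of the first 3 was 0.36, 0.24 and 0.30.

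Because Lef1 belongs to the factors that bind the Tcf/Lef core, the promoter windows of RefSeq (GRCm38.p6, from 250 bases before to 50 after the start of a gene) were searched for that core, CTTTGA, and for an Ets type motif, AGGAAG, on both strands. The motifs do not overlap each other in these windows. The table held 11 windows of 7 of the 10 genes, with 4 windows for Lef1 and 2 for Ocln. Pecam1, Cdh5 and Esam had no window there. The Tcf/Lef core was found in 3 of the 11 windows, those of Abcb1a, Mfsd2a and 1 of the 4 of Lef1, and in 16% of all 32851 windows. The Ets type motif was found in 3 of the 11, those of Abcb1a, Tie1 and 1 of Lef1, and in 35.4% of all windows. Upstream stretches of 250 bases are shown, 5′ to 3′ on the strand of the gene and with matches to either motif in capitals, because they set the gene closest to Lef1 over the 12 brains (Cldn5) beside the barrier transporters whose windows hold the core. They lie at chr5:8566841-8567090 (Abcb1a, plus strand), chr4:122961189-122961438 (Mfsd2a, minus strand) and chr16:18776597-18776846 (Cldn5, plus strand).
Abcb1a: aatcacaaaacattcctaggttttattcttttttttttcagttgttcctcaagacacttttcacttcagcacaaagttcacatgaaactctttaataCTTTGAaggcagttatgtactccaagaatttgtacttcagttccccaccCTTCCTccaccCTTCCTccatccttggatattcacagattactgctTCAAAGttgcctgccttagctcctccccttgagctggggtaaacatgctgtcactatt
Mfsd2a: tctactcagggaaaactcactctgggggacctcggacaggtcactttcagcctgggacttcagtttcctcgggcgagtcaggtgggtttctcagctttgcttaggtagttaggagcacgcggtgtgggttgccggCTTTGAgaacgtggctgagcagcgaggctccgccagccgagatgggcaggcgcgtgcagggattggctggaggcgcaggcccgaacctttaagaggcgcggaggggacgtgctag
Cldn5: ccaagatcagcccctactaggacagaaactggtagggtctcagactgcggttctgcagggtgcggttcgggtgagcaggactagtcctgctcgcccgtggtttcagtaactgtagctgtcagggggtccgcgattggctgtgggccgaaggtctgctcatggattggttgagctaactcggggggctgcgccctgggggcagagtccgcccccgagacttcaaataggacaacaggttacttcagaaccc
In Abcb1a the capitals mark the Tcf/Lef core starting 153 and, on the other strand, 58 bases before the start and the Ets type motif on the other strand at 104 and 93 bases before it. In Mfsd2a they mark the Tcf/Lef core 115 bases before the start, and the window of Cldn5 had no match. A match is a run of letters and not a shown binding site. Over the 12 brains the r with Lef1 was 0.76 for Cldn5, 0.18 for Abcb1a and -0.38 for Mfsd2a (permutation p = 0.58 for Abcb1a and 0.23 for Mfsd2a, before adjustment).

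The 10 genes whose value was most like the mean of the standardized values of the barrier genes, over the 12 brains and with genotype means and array medians removed, were Olfr799 (r = 0.91), Trim30 (0.88), Irgm1 (0.85), Spata4 (0.85), Mid1 (0.84), Olfr10 (0.84), Vmn1r227 (0.83), Gsc (0.82), H2-Q7 (0.82) and Egfl7 (0.82). Of these, Egfl7, a secreted protein of endothelial cells, was in the endothelial list, and none of the other 9 was in any list. The gene values of Spata4 (5.75) and Vmn1r227 (5.69, 1 probeset) were below the median of the intron controls, which is 7.03 on this scale. Of all 17269 other genes, 979 had an r above 0.5, and the median was 0.11. The median r was 0.27 for 28 other endothelial genes, 0.21 for pericyte markers, 0.21 for the Wnt pathway, 0.24 for meningeal markers, 0.13 for other barrier transporters, 0.13 for choroid plexus, 0.11 for astrocyte, 0.096 for erythroid and 0.065 for microglia markers, 0.089 for junction partners and -0.22 for neuron markers, which ranged from -0.66 to 0.61. Among the transporters the highest was Abcb1b (r = 0.73), whose gene value of 6.90 was also below the median of the intron controls. Its r with Abcb1a was 0.46.

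A wider set of 78 genes tested of 82 listed (junction partners, barrier transporters, the Wnt pathway of the barrier and endothelial identity genes) gave 6 genes lower and 0 higher in KIS-ko brains at an unadjusted p under 0.05 (7.69%, beside 6.16% of all genes), and 0 at an adjusted p. Their median difference was -0.041 and 58 of 78 were negative as deposited, against 33 on centred arrays and 40 on quantile-normalized arrays, beside 69.8%, 37.7% and 48.6% of all genes. Among barrier transporters, 3 of 16 were lower without adjustment, beside 4.34% of all genes. Slc16a1, the monocarboxylate carrier MCT1 that brings lactate and ketone bodies into the neonate brain, lay at 9.24, 9.33 and 9.47 in wildtype and at 9.0, 9.13 and 9.26 in KIS-ko brains. The groups overlapped narrowly, the KIS-ko littermate was lower in 6 of 6 litters, and the difference was -0.22 ± 0.054 (SE, limma adjusted p = 0.630). Tfrc, the transferrin receptor, had a difference of -0.26 ± 0.083 (SE, limma adjusted p = 0.685), and Slc40a1, the iron exporter ferroportin, of -0.15 ± 0.057 (SE, limma adjusted p = 0.685), each lower in 5 of 6 litters. Tfrc was among the genes that the study also measured by Q-PCR. Most of those genes differed in neonates there, and Tfrc did not differ in adults. The transporters as a list had a median difference of -0.080 with 15 of 16 negative as deposited, 11 on centred and 14 on quantile-normalized arrays, beside 69.8%, 37.7% and 48.6% of all genes.

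In the Wnt pathway list, 1 of 20 genes was lower and 0 were higher without adjustment, beside 4.34% and 1.82% of all genes. The median difference was -0.035, and 18 of 20 were negative as deposited, 7 on centred and 8 on quantile-normalized arrays. The lower gene was Foxf2, a transcription factor of brain pericytes that is needed for the barrier, at -0.15 ± 0.054 (SE, limma adjusted p = 0.685). Tspan12, a co-receptor of Norrin signalling, and Tnfrsf19 (Troy), a Wnt-induced receptor, had differences of -0.12 and -0.094 as deposited with the same adjusted p. On centred arrays both were smaller in size. Of the 28 endothelial identity genes, 2 were lower and 0 higher without adjustment, namely Sox7, an endothelial transcription factor, at -0.18 ± 0.057 (SE, lower in 6 of 6 litters), and Itm2a, a membrane protein found in brain endothelium, at -0.20 ± 0.068 (SE, lower in 5 of 6), each with a limma adjusted p of 0.685. Fli1, an Ets factor of endothelium and blood cells, had a difference of -0.13. The endothelial list had a median of -0.028, above the -0.036 of all genes, and 16 of 28 were negative as deposited, 9 on centred and 11 on quantile-normalized arrays, beside 69.8%, 37.7% and 48.6% of all genes. None of the 14 junction partners had an unadjusted p under 0.05. Those of lowest p were Marveld3, Cldn3 and Jam3, with log2 differences of 0.14, 0.12 and -0.11, all with a limma adjusted p of 0.685. On centred arrays these differences were 0.20, 0.18 and -0.057.

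Markers of the other cells of a newborn brain gave no adjusted call. Among 14 pericyte and mural cell markers, 1 was lower without adjustment (4.34% of all genes were), Rgs5 at -0.16 ± 0.066 (SE, limma adjusted p = 0.685), and Vtn and Des had differences of -0.10 and -0.087. These differences are as deposited and were smaller in size on centred arrays. The list had a median of -0.018, and 10 of 14 were negative as deposited, 4 on centred and 5 on quantile-normalized arrays, beside 69.8%, 37.7% and 48.6% of all genes, the shares against which the counts of the other marker lists stand. Summed over the list, pericyte signal lay between 9144 and 11391 in wildtype and between 9298 and 10734 in KIS-ko brains. The corresponding ranges for 28 endothelial genes were 17144 to 21254 and 17169 to 19796, for 10 meningeal markers 12035 to 13278 and 11315 to 13326, and for 8 choroid plexus markers 11495 to 13471 and 11573 to 13088. Erythroid markers, a sign of blood left in the vessels, lay between 16132 and 19702 in wildtype and between 17127 and 20749 in KIS-ko brains, with a median difference of 0.017 over 8 genes, of which 2 were negative as deposited, 0 on centred and 1 on quantile-normalized arrays. For the choroid plexus the median was 0.0014, with 4 of 8 negative as deposited and 2 on either rescaled form, and for the meninges -0.063, with 8 of 10 negative as deposited and 5 on either. Astrocyte and radial glia markers had a median difference of -0.081, and 9 of 9 were negative as deposited, 7 on centred and 9 on quantile-normalized arrays. The marker at that median, Slco1c1, was also in the list of barrier transporters. Among them Gfap, the intermediate filament of astrocytes, was lower without adjustment at -0.27 ± 0.081 (SE, limma adjusted p = 0.685), and the summed signal of the list lay between 25433 and 28667 in wildtype and between 24081 and 26913 in KIS-ko brains. Neuron markers had a median difference of -0.044 with 7 of 9 negative (2 on centred and 6 on quantile-normalized arrays), and microglia and macrophage markers of -0.030 with 10 of 12 negative (4 and 5). Their summed signals were 54858 to 58415 and 5063 to 5613 in wildtype, and 52617 to 57519 and 4762 to 5628 in KIS-ko brains. All these ranges overlapped between genotypes, and the part of these cells in the values of the barrier genes was not tested.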

How the data were processed

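Brains were frozen and powdered, total RNA was purified, and 12 arrays were hybridized. The authors processed the arrays with the Affymetrix Expression Console, normalizing exon-level values by quantiles and summarizing them by PLIER, and deposited 1 intensity per probeset and array, a linear signal for which no version or genome build is given in the sources used here. Positions are as deposited. Precision is limited by the 12 arrays and by signal over background.

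From 229581 probesets, the main type with a symbol was used, and 15948 whose SD exceeded 0.4 of the mean among the arrays of a genotype were rejected, after the methods. Gene values, the mean of log2(signal + 16) over 205469 kept probesets, were compared between genotypes in R 4.3.3 by limma 3.58.1 with the litter blocked, and p-values were adjusted over all genes (Benjamini-Hochberg, threshold 0.05). Single probesets were tested alike. The test was checked on simulated data. Correlations were computed in Python 3.11.15 with scipy 1.17.1 and numpy 2.4.6 by two-sided permutation tests, and plots drawn with matplotlib 3.10.9.

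The pairing comes from the labels, which give each wildtype and KIS-ko pair 1 litter. Deviations of littermates from their genotype means were correlated at 0.27, -0.059, 0.14, -0.11, 0.47 and -0.11 for litters 1 to 6, and arrays of different litters at -0.019 on average.

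The 10 genes, the lists and the tests were chosen with earlier results of these data known. The text names every member, Uhmk1, the 3 genes of lowest p in the lists on endothelium, junctions, transporters, Wnt pathway and pericytes, any list gene past the adjusted threshold, and the 10 genes closest to the members over the brains. Abcb1b and Gfap were named after their values were seen. The alternatives were no litter block, pseudocounts of 1 and 64, no deviation filter or a limit of 0.2, dim probesets left out, the median over probesets, arrays centred or quantile-normalized again, eBayes with trend and robust, probesets matching 1 place, the study's weighted fold change, and each litter left out. Chosen after the data were seen was Abcb1a without its 6 probesets in the cluster of Abcb1b.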

Additional observations from a re-analysis of the deposited data

Results flagged for a closer look

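Dixon's test for a sample far from the others was applied to 30 groups of 6 values, the wildtype values, the KIS-ko values and the within-litter differences of each of the 10 genes, and chance alone exceeds its limit in about 1 of 20 groups. It was exceeded in 2, both in Tjp1 and both through litter 4. The KIS-ko brain of litter 4 had the highest Tjp1 value of its genotype, 10.52 beside 10.37 in the nearest (gap over range 0.682). The within-litter difference of Tjp1 in litter 4 was 0.15 beside -0.078 in the nearest litter (0.735). In the same litter all 10 barrier genes were higher in the KIS-ko brain, and the median difference of all genes was 0.071.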

How the results depend on the processing

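No barrier gene passed the adjusted threshold under any alternative that gave a p, and the lowest adjusted p was 0.157, for Tjp1 without litter 4. Of 120 differences of single genes under alternatives that used all litters, 112 kept their sign and 8 reversed. Reversed on centred arrays were Pecam1 (0.022), Cdh5 (0.014), Tie1 (0.047) and Lef1 (0.018), on arrays quantile-normalized again Pecam1 (0.016), Tie1 (0.040) and Lef1 (0.0093), and with the median over probesets Lef1 (0.027). With a litter left out, 57 of 60 kept their sign, and the exceptions lay in Pecam1 (range -0.084 to 0.012, reversed without litter 2) and Tie1 (range -0.034 to 0.012, reversed without litter 2 and without litter 6). The count of barrier genes with an unadjusted p under 0.05 was 1 (Ocln) with the median over probesets, when 6.31% of all genes had such a p, and between 0 and 2 with a litter left out. It was 1 (Ocln) without litter 3, when 4.68% of all genes had such a p, and 2 (Ocln and Tjp1) without litter 4, when 22.6% had. Without the litter block the count was 0, the lowest adjusted p was 0.747 and the median difference stayed at -0.064, so dropping the block changed no call. The count of all genes past the adjusted threshold was 2 with a pseudocount of 64, 2 without the deviation filter, 5 with the limit at 0.2, 2 with trend and robust, and between 1 and 2 with a litter left out. The median pairwise r was 0.40 with array medians kept, and 0.19 over within-litter differences, the form that carries the block, with 34 of 45 pairs above 0. Of the 45 pairs, 0 passed the adjusted threshold without the 6 Abcb1a probesets in the cluster of Abcb1b (lowest adjusted p 0.089), beside 1 with them, which passed narrowly (0.0495). The cause of these changes was not tested. With a litter left out, the median difference of the 10 genes lay between -0.096 (without litter 4) and -0.031 (without litter 6), and was -0.0081 on centred arrays. None of the kept probesets of Ocln was above the 95th percentile of the intron controls, and signal over background and the 6 litters limit what could be detected.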
